A study of Mus musculus with 4 samples.

Results

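The comparison described here sets non-growing oocytes (NGOs) against fully grown oocytes (FGOs), the stage at which growth has ended and meiosis can be resumed. Both are wild-type mouse oocytes of the C57BL/6 background (C57BL/6Babr animals), and both were sequenced from total RNA after depletion of ribosomal RNA, with libraries made by the dUTP method, which marks the second cDNA strand. NGOs were taken at 5 days after birth with diameters of 10 to 40 µm, a range that overlaps that of GO1 below, and FGOs at 20 days with diameters above 70 µm. The growing oocytes GO1 (8 to 14 days, 25 to 70 µm) and GO2 (15 days, 50 to 70 µm) are given only as side values, because their libraries were made with the ScriptSeq kit and stage and kit cannot be told apart between the pairs. Each stage is 1 library of pooled oocytes. No value therefore has a replicate check, and no p-value was computed. The intervals below are nominal 95% intervals for counting error alone, since the reads carry no molecular identifiers and repeat copies of 1 molecule cannot be seen. They rest on read numbers recovered from the deposited values, which count reads more than once, and are therefore too narrow.

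The values are RPKM (reads on a gene divided by its exon length and by the library's total), listed for 25587 genes on GRCm38. All rows entered, and the 10568 genes (41.3%) with an RPKM of at least 1 in NGOs or FGOs were compared. Of these, 9109 reached 1 in both libraries, 713 in NGOs only and 746 in FGOs only. Slc28a2 (0.999 in FGOs) and Pet112l (0.999 in NGOs) lay just outside this threshold, and Oasl1 and Gm1141 (both at 1.0 in FGOs) just inside it. The change of a gene is the difference in log2(RPKM + 0.1), FGOs minus NGOs, and a gene is said to have risen or fallen only where this passed 4-fold (2 on the log2 scale), so low genes show a smaller change on this scale than their RPKM ratio. An RPKM is a share of a library and not an amount per oocyte, and in such pooled RNA fewer cells of a type and less RNA per cell cannot be told apart.

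Oocytes are arrested in the first meiotic prophase before birth, when chromosomes pair along the synaptonemal complex and exchange strands. A primordial oocyte then rests until it is recruited to grow, and during growth it builds the zona pellucida, acquires DNA methylation and stores the maternal mRNA and protein that carry the embryo through its first divisions. Transcription falls silent as growth ends. Oocytes also express members of multicopy families found in few other cells, among them the PRAME, Obox, NLRP and Fbxw genes.

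Oocyte markers were examined first. All 14 passed an RPKM of 1 in both libraries, with a summed RPKM of 7785 in NGOs and 5580 in FGOs. They mark oocytes and do not tell the stages apart. Of the 14, 11 were lower in FGOs, and the zona genes Zp1, Zp2 and Zp3, which are known to be expressed by growing oocytes, were highest in NGOs. The name NGO is therefore used here as the label gives it, and the share of oocytes in that pool that had begun to grow was not tested. The 5 genes with the highest RPKM in NGOs were Gm16211 (6358), Hexdc (6195), Padi6 (3360), Zp2 (2261) and Nlrp14 (1780), and 8 of the 10 highest genes and 72 of the 100 highest were shared with FGOs. The 10 highest genes held 14.1% of the summed RPKM in NGOs and 12.5% in FGOs. Recovered reads on genes numbered 63509084 in NGOs and 72921915 in FGOs. These numbers exceed the mapped reads that the paper lists for each library, so they overstate the number of separate reads. Of the genes tested, 10006 had at least 100 recovered reads in each of these libraries. The nominal interval of such a count, 81.4 to 122, is too narrow for the same reason.

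Most of the transcriptome was shared between the ends of growth. From NGOs to FGOs 494 genes rose past 4-fold (4.67% of those tested) and 229 fell (2.17%), 723 in all (6.84%), while 7973 genes (75.4%) lay within 2-fold. The median difference over all genes tested was −0.06 on the log2 scale, with 4939 genes above 0 and 5629 below, and 5% of genes lay below −1.51 and 5% above 1.94. Past 16-fold 54 genes rose and 7 fell. The balance depended on the threshold, since 1282 genes rose and 1313 fell past 2-fold, and with a pseudocount of 1 in place of 0.1 the counts past 4-fold were 143 and 47. Gjb1 (0.916 and 3.98) stood just inside the threshold for a rise and Cd209g (0.407 and 1.93) just outside it.

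**Figure D1:**
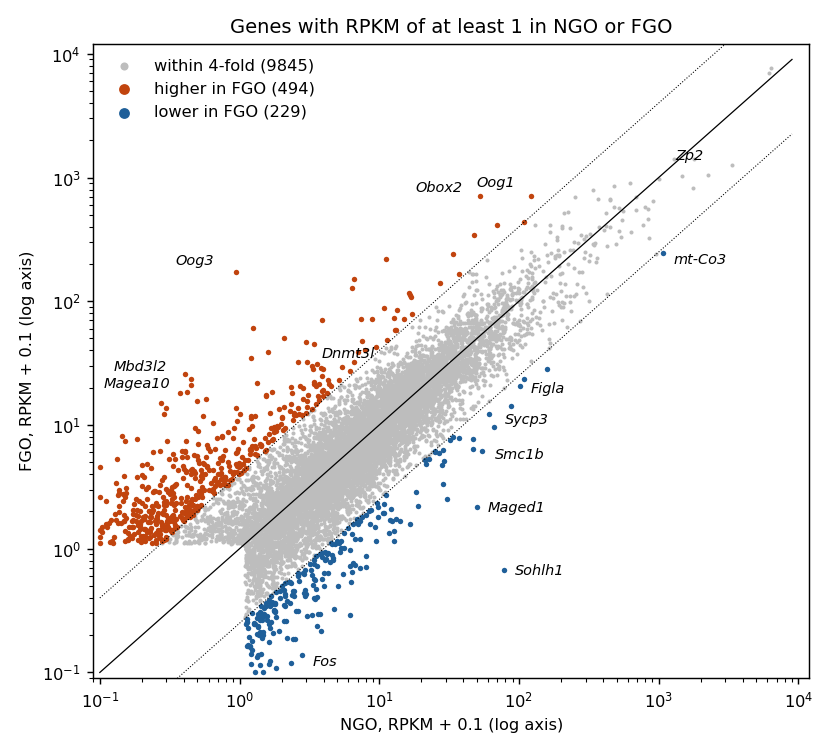
RPKM of each of the 10568 genes tested in NGOs (horizontal axis) and FGOs (vertical axis), both axes logarithmic, 1 point per gene and 1 library per stage. Coloured points are the 494 genes that rose and the 229 that fell past 4-fold, and most of the other points lie along the diagonal.

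The genes that rose were mostly low in NGOs. Their median RPKM was 0.344 in NGOs and 3.50 in FGOs, 368 of the 494 were under 1 in NGOs, and 77 were under 0.1. A gene under 1 in NGOs was compared only because it reached 1 in FGOs, so that these low values follow in part from the filter, as do those of falling genes in FGOs. Of the 494 genes that rose, 109 reached 10 in FGOs and 15 reached 100. Of the 229 genes that fell, 41 reached 10 in NGOs and 4 reached 100. Their median went from 3.22 to 0.429, and 165 were under 1 in FGOs. In the side values the growing oocytes mostly stood between the ends. GO1 and GO2 lay in the order of growth for 373 of the genes that rose (75.5%), against 10.9% of all genes tested. For those that fell it was 141 (61.6%, against 9.45%). The shares over all genes also count genes with small differences and genes that changed the other way, which cannot be so ordered. A 4-fold gap leaves more room for values between the ends, so these shares are not a like comparison.

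Among genes with an RPKM of at least 10 in the higher library and a name that is not a predicted locus, the 12 largest rises were led by a PRAME family gene. Oog3 (oogenesin 3, chr4:144157557-144162663, minus strand), which encodes a leucine-rich repeat protein of oocytes, was at 0.848 for NGOs, then 79.0 in GO1, 151 in GO2 and 171 for FGOs. It was low only in NGOs and rose 201-fold (173 to 235, from 175 and 38096 reads), or 7.49 on the log2 scale. Mbd3l2, a relative of the methyl-CpG binding protein MBD3, was at 0.309, 5.8, 15.6 and 25.5 in the same order and rose 82.5-fold (65.3 to 106). Magea10, a MAGE family gene on the X chromosome, was at 0.318, 1.91, 6.21 and 18.4 and rose 57.8-fold (45.2 to 75.2). Each of these climbed from library to library without a step back. The metalloreductase gene Steap4 followed, from 0.187 to 12.1. Spry4, an inhibitor of receptor tyrosine kinase signalling, went from 1.51 to 38.6, and the kinase gene Stk32c from 0.444 to 11.7. Oas1f, of the oligoadenylate synthetase family, went from 0.55 to 10.2. The remaining 5 of the 12 (Oog2, Oog4, C87977, C87414 and AA792892) had rises of 3.97 to 4.98 on the log2 scale, and the first 4 of them belong to the PRAME family.

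The 12 largest falls were headed by Sohlh1 (chr2:25842995-25847248, minus strand), a helix-loop-helix factor of early oocyte differentiation. It was at 78.0 in NGOs, then at 2.35 and 1.09 in GO1 and GO2 and at 0.577 in FGOs, high in NGOs alone, and was 135-fold lower in FGOs (110 to 168, from 11123 and 89 reads), a log2 change of −6.85. Maged1, a MAGE gene on the X chromosome, was at 49.8, 10.2, 4.13 and 2.07 and fell 24.0-fold (22.6 to 25.5). The other falls of the 12 lay between −2.93 and −3.60 on the log2 scale. They included Mov10l1, an RNA helicase of piRNA production, the meiotic cohesin Smc1b, the translation repressor Eif4ebp1, the kinesin adaptor Kifap3, the intraflagellar transport gene Ift27, the mitochondrial dehydrogenase Hsd17b10 and the glutathione reductase Gsr. Gipc1, Mtap7d2 and Myot completed them.

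**Figure D2:**
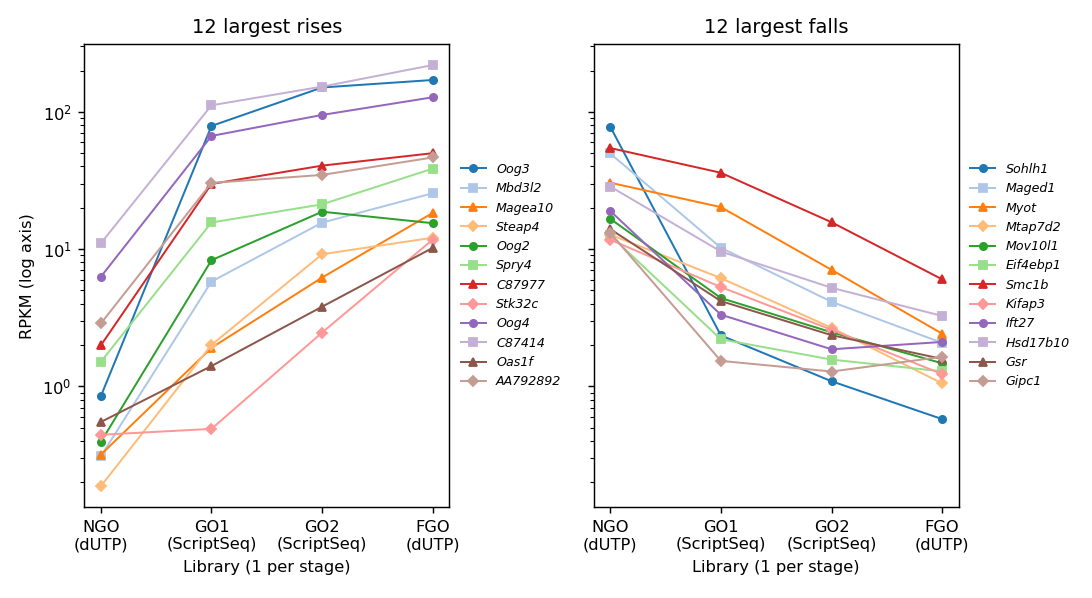
RPKM by stage from NGOs to FGOs (logarithmic vertical axis, 1 library per stage) of the 12 genes with the largest rises and the 12 with the largest falls among genes with an RPKM of at least 10 in the higher library. Oog3 climbs from 0.848 to 79.0 and Sohlh1 falls from 78.0 to 2.35 between NGOs and GO1, a step at which the library kit also changes.

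The start regions of some genes at these extremes are printed as chosen examples. They are RefSeq windows of 250 bases before and 50 bases after the start (GRCm38.p6). Oog3, Oog2 and Oog4 rose and are relatives of each other, and Sohlh1 and Smc1b fell. Capitals mark every CG dinucleotide and every TATAAA on either strand. The windows are chr4:144162602-144162901 (minus strand) for Oog3, chr4:144190467-144190766 (plus) for Oog2, chr4:143450275-143450574 (minus) for Oog4, chr2:25847199-25847498 (minus) for Sohlh1 and chr15:85131908-85132207 (minus) for Smc1b.

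Oog3: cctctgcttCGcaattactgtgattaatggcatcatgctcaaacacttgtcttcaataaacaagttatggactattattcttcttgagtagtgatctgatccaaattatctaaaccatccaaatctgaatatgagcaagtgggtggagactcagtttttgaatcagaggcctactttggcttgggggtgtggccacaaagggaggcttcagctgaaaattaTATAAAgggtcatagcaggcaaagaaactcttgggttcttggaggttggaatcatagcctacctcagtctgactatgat

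Oog2: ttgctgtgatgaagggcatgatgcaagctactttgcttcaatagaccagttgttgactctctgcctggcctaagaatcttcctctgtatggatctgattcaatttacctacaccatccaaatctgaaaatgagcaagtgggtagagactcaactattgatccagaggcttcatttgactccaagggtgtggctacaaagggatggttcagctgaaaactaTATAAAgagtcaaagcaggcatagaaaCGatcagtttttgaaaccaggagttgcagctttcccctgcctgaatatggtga

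Oog4: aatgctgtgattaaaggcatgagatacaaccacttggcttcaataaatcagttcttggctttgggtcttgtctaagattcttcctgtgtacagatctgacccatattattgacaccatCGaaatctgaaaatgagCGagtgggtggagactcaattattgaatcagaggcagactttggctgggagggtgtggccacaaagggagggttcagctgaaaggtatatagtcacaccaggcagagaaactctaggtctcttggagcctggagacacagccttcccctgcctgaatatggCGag

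Sohlh1: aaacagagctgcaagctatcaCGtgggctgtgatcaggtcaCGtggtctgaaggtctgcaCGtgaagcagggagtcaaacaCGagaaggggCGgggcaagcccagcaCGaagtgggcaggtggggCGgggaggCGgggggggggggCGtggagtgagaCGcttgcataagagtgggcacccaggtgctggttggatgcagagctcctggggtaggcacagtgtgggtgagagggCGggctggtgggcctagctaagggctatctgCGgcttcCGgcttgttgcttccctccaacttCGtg

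Smc1b: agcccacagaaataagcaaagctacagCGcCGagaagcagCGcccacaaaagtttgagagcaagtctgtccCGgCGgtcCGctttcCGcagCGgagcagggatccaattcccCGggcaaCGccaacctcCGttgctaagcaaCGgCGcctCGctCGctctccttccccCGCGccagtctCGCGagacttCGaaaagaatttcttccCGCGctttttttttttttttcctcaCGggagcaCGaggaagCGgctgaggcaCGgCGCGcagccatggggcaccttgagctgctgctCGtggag

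The Oog3, Oog2 and Oog4 windows held 1, 1 and 3 CG dinucleotides, against 14 in Sohlh1 and 29 in Smc1b. Other genes at the extremes differed less: Steap4, which rose, had 16 and Kifap3, which fell, had 14. In Oog3 and Oog2 a TATAAA lay on the sense strand, starting 29 and 30 bases before the start, and Oog4 had no such match. The related windows resembled each other, with 77.4% identical bases between Oog3 and Oog2, 82.6% between Oog3 and Oog4 and 79.3% between Oog2 and Oog4 where aligned. By the same gapped alignment the pairs of genes from different families shared 55.2% to 63.0%.

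Windows could be matched by symbol or a unique synonym for 7621 of the 10568 genes tested, 296 of those that rose and 175 of those that fell. The median number of CG dinucleotides was 22 over all these windows, 7 in genes that rose and 19 in genes that fell. Fewer than 5 were found in 39.5% of genes that rose, 6.86% of genes that fell and 6.21% of all. The lower numbers were also seen among genes with an RPKM of at least 10 in the higher library, where the median was 5 in 67 genes that rose, 17 in 29 that fell and 22 in all 3078. Over every promoter of the RefSeq table, expressed or not, the median was 7 and 38.3% had fewer than 5. The letters TATAAA, on either strand, were present in 16.2% of windows of genes that rose, 8.0% of those that fell, 6.88% of all tested and 14.2% of the whole table. On the sense strand within 50 bases before the start they were found in 6.42%, 2.29%, 1.48% and 2.88%. TAATTG, on either strand, was present in 10.1%, 3.43%, 4.79% and 8.15%, and the E-box letters CANNTG in 79.4%, 71.4%, 63.0% and 72.1%. Members of a family share sequence, so that windows are not independent of each other, and a match of letters is a description and not a site or a cause.

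**Figure D3:**
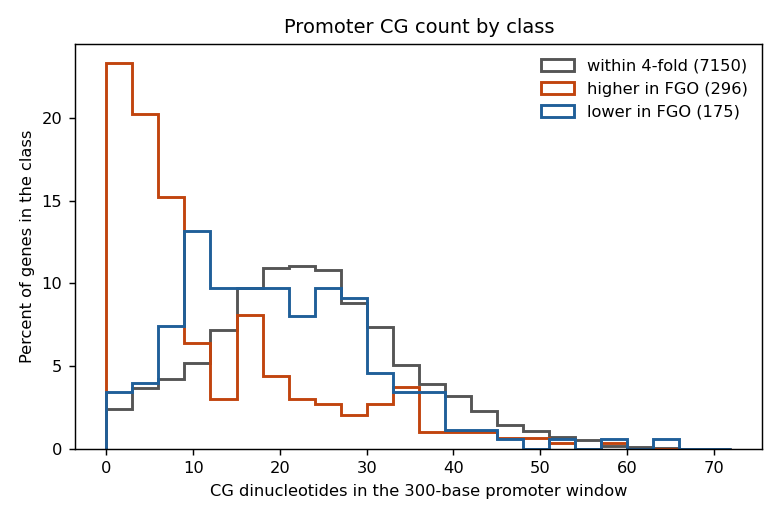
Share of genes (vertical axis) by the number of CG dinucleotides in the 300-base window around the start (horizontal axis), for 296 genes that rose, 175 that fell and 7150 within 4-fold. The genes that rose pile up at low numbers, with 39.5% under 5.

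Gene lists are described by how many of their tested members rose and fell and by their median log2 difference, to be read beside 4.67%, 2.17% and −0.06 over all genes. Where family members are close copies of each other (the PRAME, Obox, NLRP, Mettl7a, Zscan4, Rhox and histone genes), the counting behind the RPKM could divide reads between copies, and single members are uncertain to that extent.

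Most tested members of the PRAME family rose. Of 14 genes listed as oogenesins or PRAME-like, 7 were tested and 5 of these rose, with a median of 3.51. Oog2 was at 0.394, 8.30, 18.7 and 15.4 in the order of the stages and rose 39.2-fold (32.4 to 48.0). Oog4 was at 6.29, 66.8, 95 and 128 and rose 20.3-fold (19.3 to 21.5). Oog1, the member with the highest RPKM in both libraries, was at 121, 505, 550 and 706 and rose 5.83-fold (5.75 to 5.91). In each of them NGOs were the lowest of the 4 libraries. Pramef17 rose from 0.588 to 7.73, while Pramef12 (73.5 and 112) and Pramef8 (7.02 and 8.79) stayed within 4-fold. A further 22 genes carry older names that RefSeq gives as synonyms of PRAME-like symbols, a list made after their values had been seen. Of these 11 were tested and 10 rose, with a median of 4.16. The highest in FGOs were Gm13084 (33.4 and 242) and C87414 (11.0 and 219), and the largest rise was that of Gm13089, from 0.175 to 14.8 (84.6-fold, 60.7 to 122). The summed RPKM of the 2 lists went from 209.8 to 1149 and from 108.7 to 1020.

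Genes that rose often stood side by side. Taking tested genes in order along each chromosome, 134 of the genes that rose (27.1%) stood next to another that rose, against 8.02% of the other tested genes. For the genes that fell the shares were 13 of 229 (5.68%) and 4.21%. The longest run of adjacent rises was 10 genes at chr4:143437164-144213318, from Oog4 through Pramef17, Oog3 and Oog2 to C87977, and the next was 8 genes at chr5:94339749-95804230 with AA792892, Gm3259 and D5Ertd577e. Others held 7 predicted loci at chrX:23882553-35179028, 5 genes around Mettl7a1 at chr15:100304817-100383964 and Gm4745 with Obox2, Obox1 and Obox5 at chr7:14659708-15759800. By chromosome, rises were most frequent on X (8.19% of 342 tested genes) and on chromosome 4 (6.82% of 689), and falls were most frequent on X (6.73%), apart from the 13 mitochondrial genes. Of 15 PRAME family windows around the start all held 0 to 7 CG dinucleotides, and 4 had TATAAA on the sense strand in the 50 bases before the start.

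The Obox genes, oocyte homeobox factors, rose together: 3 of 5 were tested and all 3 rose. Obox2 was at 52.8, 378, 449 and 710 and rose 13.5-fold (13.2 to 13.7). Obox1 was at 7.36, 66.2, 76.0 and 72.1 and rose 9.80-fold. Obox5 was at 27.2, 124, 136 and 140 and rose 5.13-fold. NGOs were the lowest library in all 3, and Obox1 and Obox5 changed little from GO1 onward while Obox2 went on to its highest value in FGOs. Obox3 and Obox6 were under 0.1 in all 4 libraries.

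Other oocyte families had few members past 4-fold. In the NLRP family, which encodes cytoplasmic proteins with leucine-rich repeats, 2 of 12 tested members rose, with a median of 1.12, while the summed RPKM of the family was 3162 in NGOs and 2876 in FGOs. Nlrp9c was at 3.30, 23.1, 32.5 and 45.1 and rose 13.6-fold (13.1 to 14.3), and Nlrp9a was at 12.9, 41.0, 49.5 and 58.1. Nlrp14 (1780 and 1413), Nlrp5 (777 and 414) and Nlrp4f (323 and 346), the 3 with the highest RPKM in NGOs, stayed within 4-fold. All 13 oocyte Fbxw genes, F-box subunits of ubiquitin ligases, were above 0 and none passed 4-fold (median 0.99), the nearest being Fbxw19 at 43.7 and 172. The same held for the 6 Tcl1 genes (median 0.99). Of 8 oligoadenylate synthetase genes all were above 0 (median 0.80) and only Oas1f rose. Bmp15 (131 and 414), Oosp1 (254 and 700) and Rfpl4 (210 and 512) had the same direction within 4-fold. Windows of NLRP genes had a median of 2 CG dinucleotides (10 windows) and those of Fbxw genes a median of 1 (11 windows).

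**Figure D4:**
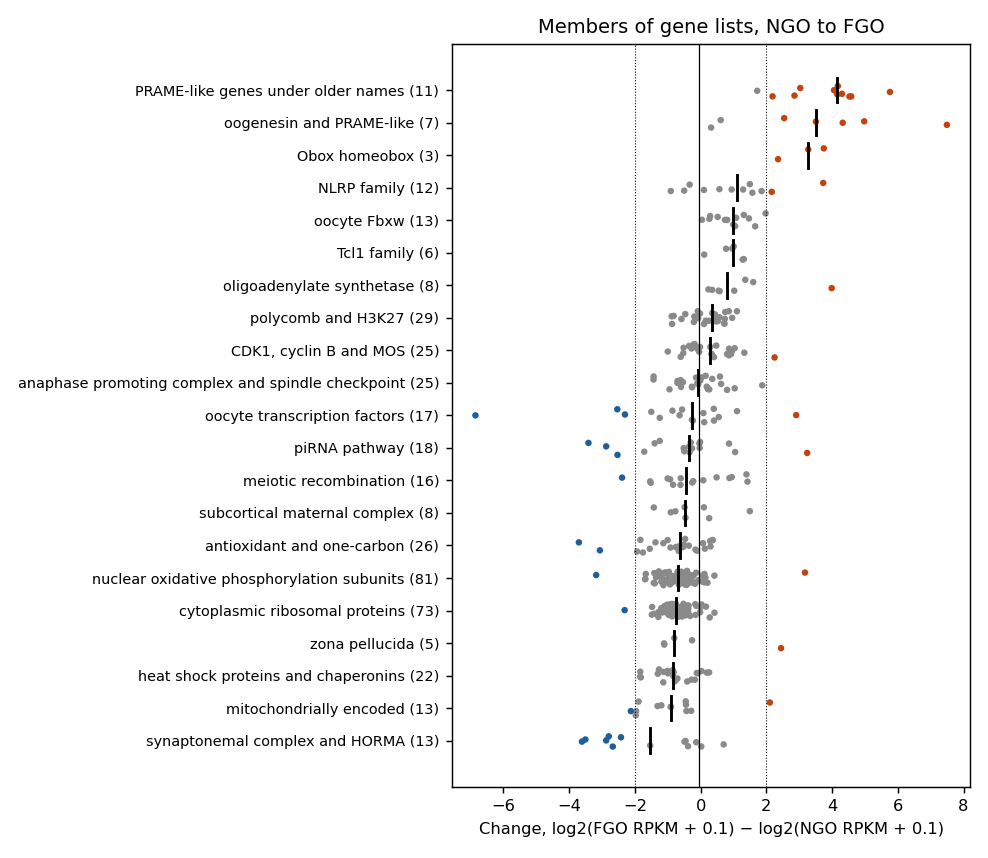
Log2 difference in RPKM + 0.1, FGOs minus NGOs (horizontal axis), of the tested members of 21 gene lists, 1 point per gene, with a bar at each list's median and dotted lines at 4-fold in either direction. The PRAME and Obox points lie to the right, the synaptonemal complex points to the left, and most others between the dotted lines.

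Among oocyte transcription factors 3 of those that act around follicle formation fell. Figla, which activates the zona genes, was at 102 in NGOs, 38.9 and 23.6 in GO1 and GO2 and 20.6 in FGOs and fell 4.95-fold (4.71 to 5.21). Sohlh2, the partner of Sohlh1, was at 12.1, 3.69, 2.19 and 2.01 and fell 6.03-fold (5.51 to 6.6). Both were highest in NGOs. Nobox was at 125 and 104, and Lhx8 at 40.9 and 27.6, within 4-fold. Tbpl2, the oocyte form of the TATA-binding protein, was at 37.3 and 15.7, and Tbp at 3.54 and 3.76. Of 17 tested members 3 fell (Sohlh1, Sohlh2 and Figla), 1 rose and the median was −0.26. The member that rose was Zscan4c, better known from embryos, at 0.0747 and 1.21, and Zscan4b rose with it (0.196 and 2.34). Ehf, an ETS factor singled out after its values were seen, also rose (2.53 and 32.3). Among 13 tested pluripotency and germ cell factors only Prdm1 rose (0.110 and 1.75), and Pou5f1 was at 64.5 and 54.8.

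Many genes of meiotic prophase fell. Of 13 tested genes of the synaptonemal complex and HORMA list 6 fell and none rose, with a median of −1.53. Sycp3, of the lateral element, was at 66.3, 36.7, 22.9 and 9.48 and fell 7.0-fold (6.62 to 7.41). Sycp1, of the transverse filament, was at 18.3, 15.9, 7.46 and 2.79 and fell 6.56-fold (6.16 to 6.99). Syce1, of the central element, was at 7.98, 3.73, 1.75 and 0.612 and fell 13-fold (10.7 to 16). The decline ran through every library in these 3. Fkbp6 (46.9 and 6.32), Hormad1 (2.35 and 0.358) and Syce3 (1.31 and 0.0151, the latter from 1 read) also fell. The complex did not move as one: Syce2 was at 77.3 and 78.4, Tex12 at 10.8 and 7.83, and Sycp2 at 8.23, 25.8, 23.4 and 13.4, with its highest value in GO1.

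The recombination and cohesin lists each had 1 member that fell. Of 16 tested recombination genes only Prdm9, the methyltransferase that places the hotspots of recombination, fell (1.40, 1.01, 0.541 and 0.186), and the median was −0.43. Dmc1, the meiotic strand exchange protein, was at 0.367 and 1.16, and Tex15 at 32.0 and 11.1. Of 18 tested cohesin genes only the meiotic subunit Smc1b fell, at 54.5, 36, 15.7 and 6.02 (9.05-fold, 8.57 to 9.56). Its somatic counterpart Smc1a was at 10.6 and 7.85, Rad21 at 8.51 and 11.1, Rad21l at 6.33 and 3.98 and Stag3 at 2.30 and 1.01. Rec8 was at or under 0.023 in all 4 libraries. Beside Sohlh1 and Sohlh2, no tested gene of the 13 on the premeiotic list fell, with Ddx4 at 67.4 and 28.4, Dazl at 126 and 120 and Nanos2 at 6.51 and 20.8, and Stra8 was listed at 0 in all libraries.

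The piRNA pathway, which silences transposons in germ cells, had members moving both ways. Mov10l1 was at 16.6, 4.4, 2.48 and 1.47 and fell 11.3-fold (10.5 to 12.2). Piwil2, a PIWI protein, was at 29.2, 7.43, 5.60 and 4.97 and fell 5.87-fold (5.64 to 6.10). Fkbp6, counted above as well, fell 7.43-fold (6.78 to 8.15). Piwil1 went the other way, at 0.296, 0.600, 1.73 and 3.64, and rose 12.3-fold (10.3 to 14.8). Piwil2 stood far above Piwil1 in NGOs and close to it in FGOs. Of 18 tested members 3 fell and 1 rose, with a median of −0.34, and Tdrd1 (99.8 and 70.6), Gtsf1 (69.5 and 67.8) and Tdrd12 (36.3 and 75.3) stayed within 4-fold.

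**Figure D5:**
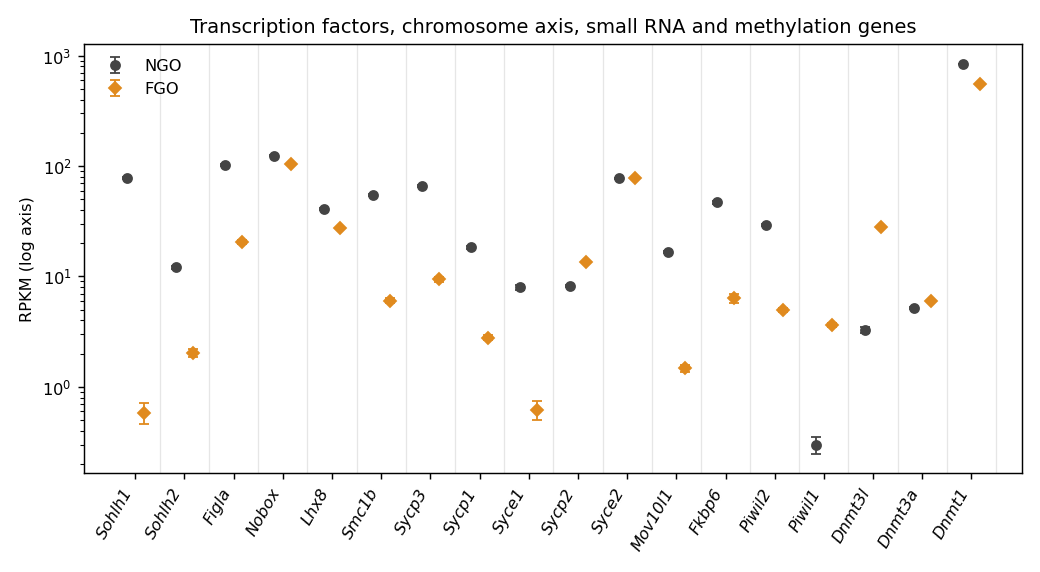
RPKM (logarithmic axis) of 18 germline genes in NGOs and FGOs, 1 point per library with its nominal 95% counting interval. Sohlh1, the synaptonemal genes Sycp1, Sycp3 and Syce1, Smc1b, Mov10l1, Fkbp6 and Piwil2 are lower in FGOs, Piwil1 and Dnmt3l are higher, and Nobox, Lhx8, Syce2, Dnmt1 and Dnmt3a lie close together.

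In the DNA methylation list the cofactor stood out and the enzymes did not. Dnmt3l, an inactive partner that stimulates DNMT3A, was at 3.25 in NGOs, at 8.48 and 14.5 in GO1 and GO2 and at 28.3 in FGOs, rising in each library, and was 8.70-fold higher in FGOs (8.17 to 9.27). Dnmt3a was at 5.22, 6.82, 6.85 and 6.00 and Dnmt3b at 2.97, 2.54, 3.41 and 3.85, within 4-fold. Dnmt1, the maintenance enzyme, was at 845 and 559, Uhrf1 at 247 and 184 and Dppa3 at 844 and 461. Tet3 was at 21.4 and 35.7 and Tet2 at 1.90 and 0.583. Of 18 tested genes Dnmt3l alone passed 4-fold, and the median was −0.38.

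Among chromatin genes few passed the threshold. In the list for histone H3 lysine 4 and lysine 36 methylation 2 of 20 tested genes fell, the demethylase Kdm5b (3.34 and 0.461) and the methyltransferase Smyd2 (9.22 and 1.41), while Kdm1b, the demethylase with the highest level, was at 231, 197, 156 and 99. Of 29 tested polycomb genes none passed 4-fold (median 0.35), with Ezh2 at 12.9 and 18.0 and Eed at 25.1 and 41.3. Of 19 tested rows for remodelling ATPases only Chd5 rose, from 0.160 to 1.83. Among 51 clustered histone genes 2 rose, Hist1h2bk (16.2, 12.6, 32.4 and 117) and Hist1h2ah (2.35 and 12), and the median was −0.03. Of the variant histones, H1foo, the oocyte linker histone, was at 621 and 899.

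The zona and maternal effect genes took a smaller share of the summed RPKM in FGOs, and none of them fell past 4-fold. Zp2 was at 2261, 1643, 1403 and 1052, Zp3 at 1772, 616, 723 and 820 and Zp1 at 633, 254, 237 and 363. Together the 5 genes of the zona list held 2.66% of the summed RPKM in NGOs and 1.34% in FGOs. The only one to rise was Zp3r, at 0.162 and 1.33, a gene named as a receptor for ZP3. The 8 genes of the subcortical maternal complex, a protein assembly needed for early cleavage, went from 3.20% to 1.74%, none past 4-fold. Padi6 alone, at 3360, 1371, 1207 and 1253, went from 1.78% to 0.668%. Of the 8 genes, 3 were above 0 and 5 below. The 23 maternal effect genes held 4.94% and 3.22%, and none passed 4-fold (median −0.32), from Npm3 (15 and 5.08) to Zar1l (46.0 and 166). Gdf9, the growth factor with the highest RPKM, was at 1009 and 974.

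Genes used at and after meiotic resumption were already present in the NGO library. Of 25 tested genes around CDK1 and MOS only the cyclin Ccnb3 rose, at 1.32, 4.30, 6.31 and 6.67 (5.05-fold, 4.65 to 5.49), with a median of 0.29. Ccnb1 was at 49.3 and 124, Mos at 129 and 234 and Cdk1 at 25 and 22.1. None of 25 genes of the anaphase promoting complex and spindle checkpoint passed 4-fold, Bub1b coming nearest at 59.1 and 217. Of 27 genes for storage and translation of maternal mRNA none passed it (median −0.27), and of 19 for its decay none (median 0.10), with Btg4 at 223, 547, 562 and 525. Of 34 tested cell cycle and replication genes none passed it.

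Few single genes of the housekeeping machinery passed 4-fold, and the medians of its lists differed. Of 73 tested cytoplasmic ribosomal protein genes 68 were below 0 (median −0.75), and their share of the summed RPKM was 1.96% in NGOs and 1.12% in FGOs, but only Rps23 fell (61.2, 80.9, 30.6 and 12.3). Of 81 nuclear genes for oxidative phosphorylation 73 were below 0 (median −0.69), 1 rose (Cox6a2, 0.371 and 4.15) and 1 fell (Cox4i2, 6.56 and 0.636). The 13 mitochondrially encoded genes held 1.27% of the summed RPKM in NGOs and 0.395% in FGOs (median −0.91). There mt-Co3 fell, at 1066, 585, 415 and 245, and mt-Nd6, the single gene of the list encoded on the other strand, rose, at 11.3, 50.6, 24.7 and 48.9, while the remaining 11 stayed within 4-fold. Whether strand was used in counting is not given in the sources used here. The medians were −0.16 for 73 mitochondrial ribosomal proteins, −0.19 for 35 proteasome subunits and −0.83 for 22 heat shock proteins and chaperonins, with no member of these past 4-fold. Actb, read as a common reference gene and chosen after its values were seen, was at 160, 49.7, 31.1 and 28.4 and fell 5.62-fold (5.50 to 5.75).

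Few metabolic genes passed 4-fold. Of 26 tested antioxidant and one-carbon genes 20 were below 0 (median −0.62) and 2 fell. Catalase (Cat) was at 2.33, 0.362, 0.119 and 0.0864 and fell 27-fold (18.4 to 41.2), and Gsr was at 14, 4.18, 2.36 and 1.58. Acadl, a fatty acid dehydrogenase, fell from 2.36 to 0.317. Of 12 tested glycolysis genes Pfkp rose from 0.112 to 1.05, and Ldhb was at 1480 and 1020. Of 53 tested genes on the translation initiation list 2 fell, Eif5a2 (6.19 and 0.440) and the translation repressor Eif4ebp1 (12.6, 2.20, 1.57 and 1.29). In growth signalling Eif4ebp1 was the only one of 20 tested genes to pass 4-fold, with Kit at 62.2 and 38.4 and Mtor at 11.0 and 7.38. Of 24 tested checkpoint and apoptosis genes Bid fell (1.38 and 0.0989), and Bcl2l10 was at 337 and 797.

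The MAGE, Rhox and Mettl7a lists were made after their values had been seen. In the MAGE family Mageb4 (6.08 and 0.191), Maged1 and Maged2 (1.51 and 0.147) fell and Magea10 rose, of 6 tested. All 3 tested Rhox homeobox genes fell, Rhox1 from 5.39 to 0.530, Rhox10 from 3.32 to 0.646 and Rhox2a from 1.08 to 0.0593. All 3 Mettl7a genes rose, Mettl7a1 from 3.47 to 30.9, Mettl7a3 from 3.74 to 28.9 and Mettl7a2 from 1.19 to 11.7. Of 19 tested imprinted genes Usp29 rose (1.07 and 9.12) and Mcts2 fell (3.44 and 0.369), with a median of −0.22. Among 154 solute carriers 9 rose and 3 fell, led by Slc6a15, an amino acid transporter, at 0.0844, 0.539, 3.06 and 7.59. Of 270 tested zinc finger names 6 rose and 4 fell (median 0.10), with Zfp735 at 0.836, 9.80, 12.9 and 13.6.

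The share of rises differed between classes of transcript. Of 1095 tested predicted loci (Gm and Rik names) 121 rose, which is 11.1%, and 21 fell (1.92%). By the biotype of GENCODE, 32 of 109 lincRNAs rose (29.4%) and 2 fell, 15 of 77 antisense genes rose (19.5%) and 1 fell, and of 9096 protein coding genes 382 rose (4.20%) and 201 fell (2.21%). Of 127 processed pseudogenes 1 rose and 2 fell (median −0.56), and of 1071 rows without a match in GENCODE 52 rose (4.86%) and 20 fell. The lincRNAs E330010L02Rik (0.346, 6.6, 14.8 and 23.3) and Gm2101 (1.11, 15.9, 24.5 and 34.4) lie in the run on the X chromosome, and were singled out after their values were seen. Gm11381 was at 0.0431 (2 reads) and 7.98 (401 reads). Of 1436 rows for olfactory and vomeronasal receptors, genes of sensory neurons, 17 were tested and 8 rose, beside 4.67% over all genes. Olfr288 went from 0.0317 to 5.19, while Vmn1r90, with the highest level, was at 94 and 48.2. A receptor gene near 0 in NGOs was tested only because it reached 1 in FGOs. The share of rises therefore follows in part from the filter, as in any class with many genes low in NGOs. Of the genes that rose 12 had fewer than 3 recovered reads in NGOs, and for those with none only a bound can be given: 4930522H14Rik was at least 158-fold higher in FGOs, taking 3 reads as the limit for the NGO library.

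Markers of other ovarian cells were low, and some of them moved with the comparison. Of 11 stroma and mesenchyme markers 2 were tested and both fell, Col1a1 (2.24, 0.0168, 0.0170 and 0.0191) and Col3a1 (1.73, 0.00565, 0.00989 and 0.00898), and the sum of the list went from 5.93 to 0.439. The erythroid list summed to 2.56 in NGOs and 0 in FGOs, and its only tested member, Hbb-b2, was at 1.38 in NGOs and listed at 0 in FGOs. Alongside these, the immediate early genes Fos (2.68, 0.0872, 0.0476 and 0.0391) and Jun (1.55, 0.0643, 0.0325 and 0.0236), which respond to stress and growth signals, fell, 2 of 8 tested members of their list. Of 9 surface epithelium markers 4 were tested, and the sum of the list went from 16.6 to 32.7. Epcam, an adhesion gene that germ cells also express, fell from 3.37 to 0.295, while Cdh1 (9.67 and 25.3), Lrrn4 (1.45 and 5.06) and Krt8 (1.53 and 0.986) stayed within 4-fold, and Msln was at 0 in FGOs. The genes of other cells named here that fell were all below 4 in NGOs, and the part of other cells in these results was not tested.

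In the other direction, 4 of 15 granulosa markers were tested, and all 4 were at least 2-fold higher in FGOs (median 1.37). Past 4-fold 1 of them rose, Cyp19a1 (aromatase) at 0.518, 1.08, 3.13 and 6.08. Nr5a2 was at 3.62 and 8.65 and Inha at 0.638 and 1.54, and the list's sum went from 7.04 to 19.8. Among its markers that were not tested, the defining marker Foxl2 was at 0.0753 and 0.0265 and Amh at 0.250 and 0.412. Krt19, also not tested, was at 0 in FGOs. Of 9 endothelial markers 3 were tested, and all 3 were above 0 (median 2.41). Pecam1 (1.74 and 9.70) and Tie1 (0.204 and 1.59) rose, Tek was at 1.56 and 2.62, and the list's sum went from 3.84 to 14.6. Cdh5 and Emcn, which were not tested, were at 0 in FGOs, and 1 of the 9 markers was at 0 in NGOs. The immune list summed to 0.935 and 0.367, with none of 11 markers at an RPKM of 1, and the theca list to 3.16 and 1.89, of which Ptch1 made up 2.46 and 0.942. Smooth muscle markers summed to 7.25 and 17.9, nearly all from Myh11 (5.53 and 13.3) and Cnn1 (1.26 and 4.6), with Acta2 at 0.269 and 0. The fibroblast growth factor receptor gene Fgfr2, the only one of 22 tested signalling genes to rise, was at 1.09, 2.55, 4.33 and 5.73. The part of other cells in these values was not tested.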

How the data were processed

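RNA of 4 pools of mouse oocytes was analysed, 1 library per stage. The authors deposited 1 table of RPKM values on a linear scale for 25587 genes. According to the submitters' processing notes, reads were trimmed with Trim Galore 0.2.8 and mapped to GRCm38 with TopHat2 2.0.9. The program, annotation and strand setting behind the deposited RPKM are not given in the sources used here, and reads from genes that overlap on opposite strands or from near copies could not be separated, and the table's file name speaks of counts although the values are not whole. A count model was therefore not used. The table holds 115 names on more than 1 row, which were kept as separate rows.

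Reads were recovered from the steps of the RPKM values. For genes with 1 exon in GENCODE (M21) the total behind each library was fitted, and 99.4% to 99.7% of the values above 0 were then whole. For the others the exon length was taken that made all libraries whole (10204 from the exon union, 1200 from a transcript, 9619 as the smallest length). A smallest length can be below the true one, and reads and intervals then rest on too few reads. Totals were 110595207 in NGOs and 119629248 in FGOs, more than the raw reads that the paper lists for these libraries. Recovered reads therefore cannot each be a separate read, and the counting intervals are too narrow. Intervals are exact Poisson or binomial intervals on the recovered reads at a nominal 95%, and they cover counting error only. For a gene with 1 kb of exons, 3 reads equal an RPKM of 0.0271 in NGOs and 0.0251 in FGOs.

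Changes were differences of log2(RPKM + 0.1) over genes with an RPKM of at least 1 in either library, called at 4-fold. With 1 library per stage no test was possible. Named genes were the 12 largest rises and falls at an RPKM of at least 10 without predicted loci, the extremes and highest members of 65 lists (lists of up to 14 in full), the 5 highest genes per library and the markers of 9 lists. Other named genes, and 6 further lists, were chosen after their values were seen. Some members of 2 lists are not reported here. The comparison, the members and the lists were chosen with earlier results of these data known. Promoter windows were taken from RefSeq (GRCm38.p6), with starts at most 1000 bases from the listed start. Alternatives were other pseudocounts, filters, scalings and thresholds. Scripts were tested on simulated data. Analyses used Python 3.11.15 with numpy 2.4.6, pandas 2.3.3, scipy 1.17.1 and matplotlib 3.10.9.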

Additional observations from a re-analysis of the deposited data

Results flagged for a closer look

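A signal in libraries that the comparison does not use was found for 124 genes. They had an RPKM under 1 in NGOs and FGOs and of at least 1 in both GO1 and GO2, and so were not among the genes compared. Ordered by the lower of the GO1 and GO2 values, the first was AC152922.1, at 0 in NGOs and 0.107 in FGOs but 14.3 and 29.7 in GO1 and GO2, followed by 9530026F06Rik (12 and 32.6, against 0.0101 in NGOs and 0.0375 in FGOs) and Rnaset2a (8.59 and 8.76, against 0.524 and 0.783). Stage and library kit cannot be told apart for these genes.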

How the results depend on the processing

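A pseudocount of 1 left 143 rises and 47 falls past 4-fold, and a minimum RPKM of 5 left 184 and 77. A threshold of 2-fold gave 1282 rises and 1313 falls, so that the excess of rises seen at 4-fold was absent there, and a threshold of 8-fold gave 194 and 56. The median difference was −0.0274 without a filter on low values, −0.0232 at a minimum RPKM of 5, −0.00313 after trimmed mean scaling and −0.0117 with equal medians. A pseudocount of 0.01 (553 and 265), no filter (659 and 316), trimmed mean scaling (525 and 214), equal medians (519 and 215) and a minimum of 100 reads over both libraries (483 and 225, added after the data were seen) stayed within 1.5 times the counts reported. Of 220 genes chosen by the rule for naming, 72 passed 4-fold, all 72 did so with a pseudocount of 0.01, trimmed mean scaling and equal medians, and 43 with a pseudocount of 1. None of the 72 changed sign. Of the values of lists and single genes under all settings, 2011 stayed within their limits and 651 moved, and no called value changed direction. No paired analysis was possible because each stage has 1 library. For the same reason no replicate could be left out, and differences between oocyte pools and between stages cannot be told apart.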

Other observations

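Further gene lists held few members past 4-fold between NGOs and FGOs (levels in RPKM). Of 13 tested genes of sperm fusion and egg activation only Cd81, a membrane protein of the tetraspanin family, fell (2.80 in NGOs and 0.342 in FGOs), while Cd9, its relative needed for fusion, was at 59.1 and 43.1 and Folr4, the egg receptor also called Juno, at 10.7 and 38. Of 28 tested kinesins Kif21a fell (1.48 and 0.186), with a median log2 difference of −0.10 over the list. Among 14 tested collagen names Col13a1 rose (0.0491 and 1.77) beside the falls of Col1a1 and Col3a1, with a median of 0.51, and Col6a6 was at 17.7 and 19.6. No tested member passed 4-fold, with the list's median log2 difference in parentheses, among 25 genes of the citric acid cycle and pyruvate use (−0.38), 22 ubiquitin ligase genes (−0.01), 19 nucleoporins (0.04), 14 rows for m6A methylation of RNA (0.19), 12 genes of H3K9 methylation and heterochromatin (0.08), 12 amino acid transporters (0.23), 11 genes of small RNA processing (0.08), 10 of the cyclic AMP arrest (0.09), 9 interferon and innate immune genes (0.37), 7 growth factor and junction genes (0.58) and 6 other matrix genes (0.41). Among 25 tested genes of variant histones and histone chaperones none passed it either (0.03), and Hoxa7 was the only one of 39 Hox genes to be tested (0.732 and 2.32).

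Some genes set GO1 and GO2 apart from both NGOs and FGOs. In 40 genes both ScriptSeq libraries (GO1 and GO2) were over 4-fold above both dUTP libraries, and in 66 they were over 4-fold below them. The mitochondrial gene mt-Atp8 was at 1821 and 429 in GO1 and GO2, against 105 in NGOs and 42.4 in FGOs. The lincRNA 4732465J04Rik was at 114 and 116, against 1288 and 1414, and the histone gene Hist1h2bl at 41.5 and 84.9, against 447 and 665. GO1 and GO2 hold stages between NGOs and FGOs, and stage and kit cannot be told apart.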
